A study of Drosophila melanogaster with 6 samples.

Results

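*CG34051*, *CG42866*, *CG13965* and *CG16772* are 4 genes that follow each other without a gap in gene order on chromosome arm 2L, and all 4 were upregulated in *Drosophila* heads 4 hr after penetrating traumatic brain injury (PTBI). They were picked by symbol from the deposited listing of changed genes, where they make up 4 of 367 listed genes and 4 of the 259 listed as higher. Because they were picked for this rise, their difference between injured and uninjured heads is given as a description, with no test. PTBI is a wound made with a fine sterile needle through the head capsule of CO2-anesthetized flies, here into both hemispheres of the central brain. Bulk RNA-Seq was run on whole heads of adult males, as 3 PTBI samples taken 4 hr after injury and 3 samples of age-matched uninjured males. Both groups were male offspring of yw flies crossed to w flies with UAS-mCD8-GFP and OK107-GAL4, so both carry a membrane-bound GFP and a driver that is active in the mushroom body, a learning centre of the central brain. Each sample pooled about 100 to 120 heads of flies collected no later than 6 hr after eclosion. The sources used here do not say whether uninjured males were also anesthetized.

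All 4 genes are known by annotation number alone and carry no gene name in the annotation used here. In flies, neighbouring genes are often expressed together, and several families of infection-induced peptides sit in tight clusters of such neighbours. Genes placed head to head, with their starts close together on opposite strands, can share the DNA between them as a promoter region. A whole head also holds fat body and haemocytes, the main sources of secreted immune proteins in the adult, besides neurons and glia.

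The run spans 3776 bases of 2L in the BDGP6 assembly, from 19960069 to 19963844, and 3 of its genes lie on the minus strand. *CG34051* (FBgn0054051, 19960069 to 19961030, minus strand) has 4 exons and codes for 223 residues in its longer form. *CG42866* (FBgn0262140, 19961224 to 19961685, minus strand) has 2 exons and codes for 54 residues. That is a very short product, since 1.11% of 13986 annotated protein-coding genes have a shorter coding sequence. *CG13965* (FBgn0032834, 19961758 to 19962352, minus strand) has 2 exons and codes for 133 residues. *CG16772* (FBgn0032835, 19962679 to 19963844) is the one gene of the run on the plus strand, with 2 exons and 311 coded residues. All 4 are below the median of 391 residues over annotated protein-coding genes.

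The genes are packed closely. *CG34051* and *CG42866* are 193 bases apart, and *CG42866* and *CG13965* are 72 bases apart on the same strand, a spacing of 0 to 72 bases being found for 7.13% of neighbouring protein-coding pairs. *CG13965* and *CG16772* stand head to head with 326 bases between their starts, and 30.6% of annotated head-to-head pairs are at 0 to 326 bases. No listed gene adjoined the run at either end. On the left, *COX4*, which encodes a subunit of mitochondrial cytochrome c oxidase, ends 3 bases from the end of *CG34051* on the opposite strand and was not listed. On the right, *CG10680* begins 291 bases after *CG16772* and was not listed either. Within 50 kb to either side there are 15 other annotated genes, 8 of them protein-coding, and none was listed. The whole listing holds 367 genes, few beside 13986 annotated protein-coding genes. A count of 0 among 15 neighbours therefore says little about the run. Among these neighbours are *TotE* and *TotF* of the Turandot family of stress-induced secreted peptides. A gene outside the listing has no value here, so an unlisted neighbour may have changed by less than the 2-fold that the listing required.

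**Figure D1:**
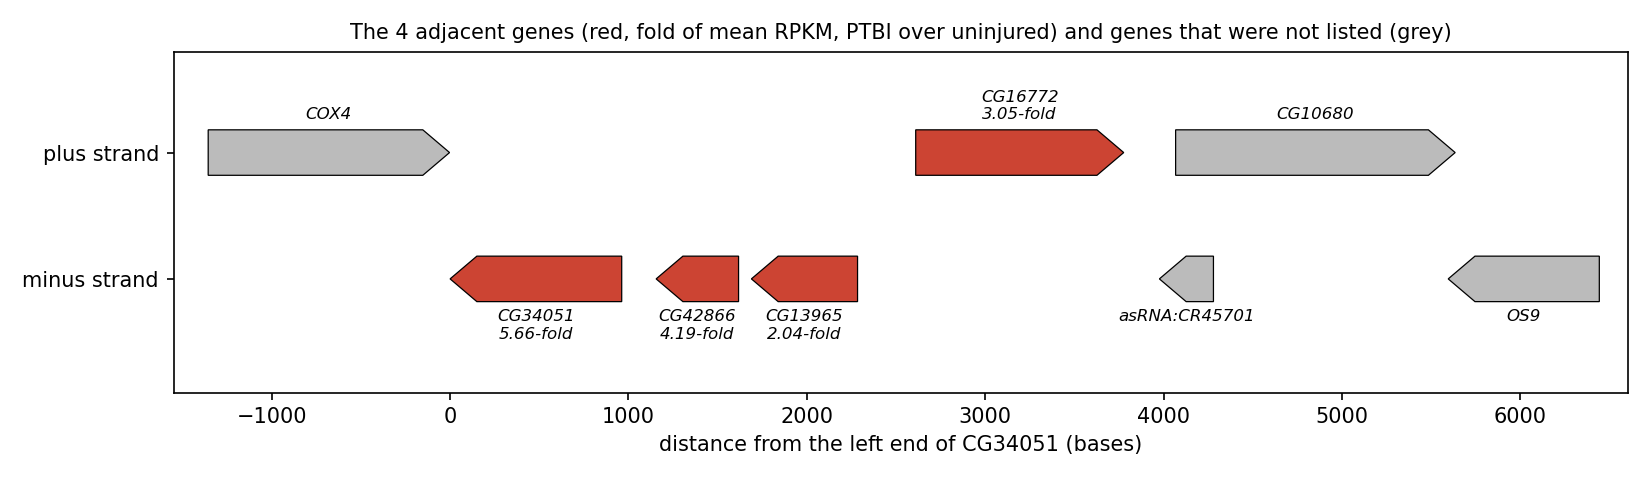
Map of the run, drawn to scale in bases from the left end of *CG34051*, with arrows pointing in the direction of transcription, the upper row on the plus strand and the lower row on the minus strand. The 4 red genes were listed as higher after PTBI and carry the fold of their mean RPKM, and the grey genes on both sides were not listed.

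*CG16772* was by far the most abundant gene of the run. Its RPKM (read count relative to gene length and to the reads of the library) was 925, 1206 and 1056 in PTBI replicates 1, 2 and 3, and 304, 511 and 229 in uninjured replicates 1, 2 and 3. Every PTBI sample was thus above every uninjured sample, the closest pair being PTBI replicate 1 and uninjured replicate 2 at 1.81-fold. This held for all 4 genes of the run, which says nothing about them in particular, because the groups failed to overlap for 100% of the listed genes and the PTBI samples were on top for 70.6%. The mean of *CG16772* was 1062 ± 141 RPKM after PTBI and 348 ± 146 RPKM in uninjured heads (SD, n = 3 per group), 3.05-fold higher. In uninjured heads it ranked 10 by level among all 367 listed genes, and after PTBI it ranked 13. The added transcript was large too: the increase of 714 RPKM was number 15 in size among the 259 genes listed as higher. It rested on 30577, 32154 and 40654 reads in the PTBI samples and 9903, 20243 and 6665 reads in the uninjured samples, so counting error is small beside the spread between samples.

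*CG13965*, the head-to-head partner of *CG16772*, rose less and from a far lower level. Its RPKM was 18.5, 14.7 and 15.6 in PTBI replicates 1 to 3 and 7.28, 10.6 and 6.06 in uninjured replicates 1 to 3. The groups did not overlap, although PTBI replicate 2 and uninjured replicate 2 were 1.39-fold apart. Uninjured heads had a mean of 7.98 ± 2.35 RPKM and PTBI heads one of 16.3 ± 1.97 RPKM (SD over 3 samples each), a fold of 2.04. *CG13965* was thus 1 of 16 genes listed as higher whose ratio of means was between 2 and 2.1. The 2-fold limit of the listing was not set on this ratio, by which a gene listed as higher was at 1.93. The gene had 299, 192 and 294 reads after PTBI and 116, 205 and 86 reads in uninjured heads. Without uninjured replicate 3 its fold was 1.82, and without uninjured replicate 2 it was 2.44.

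*CG34051* and *CG42866* were close to silent in uninjured heads. *CG34051* was at 0.387, 0.746 and 0.627 RPKM in PTBI replicates 1 to 3 and at 0.0435, 0.0717 and 0.195 RPKM in uninjured replicates 1 to 3. These values stand for 9, 14 and 17 reads against 1, 2 and 4 reads. The group means were 0.104 ± 0.0808 RPKM in uninjured heads and 0.586 ± 0.183 RPKM after PTBI (SD, n = 3 each), 5.66-fold higher. Uninjured replicate 3 held 4 of the 7 control reads, and without it the fold was 10.2. *CG42866*, the short-peptide gene, was at 0.822, 1.12 and 1.69 RPKM after PTBI, on 10, 11 and 24 reads. In uninjured replicates 1 to 3 it was at 0.500, 0.274 and 0.0935 RPKM, on 6, 4 and 1 reads. Its group means were 0.289 ± 0.203 RPKM in uninjured heads and 1.21 ± 0.443 RPKM after PTBI (SD, n = 3 each), 4.19-fold higher, and 6.59-fold higher without uninjured replicate 1. PTBI replicate 1 and uninjured replicate 1 were 1.64-fold apart for *CG42866*, on 10 and 6 reads, whose 95% exact Poisson intervals of 4.80 to 18.4 and 2.20 to 13.1 reads overlap.

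**Figure D2:**
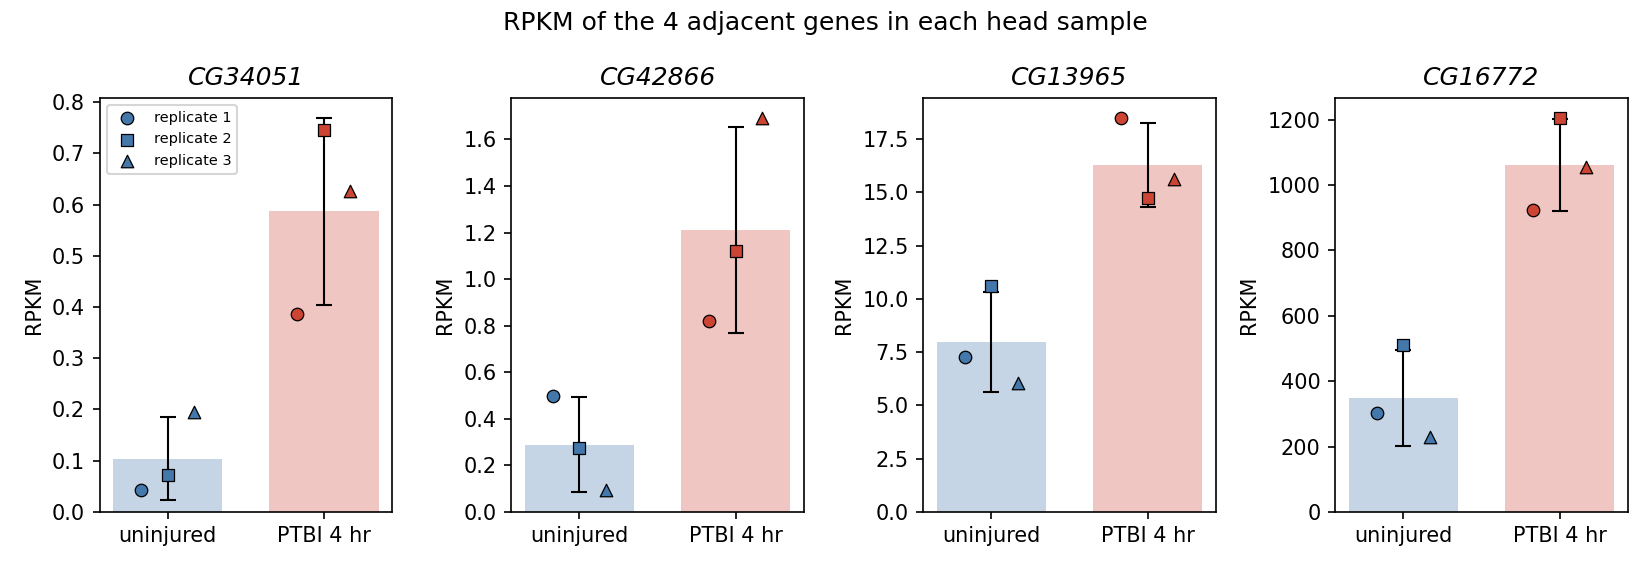
RPKM of each gene in each head sample, on a linear axis from 0 of its own for each gene; bars are group means, error bars are SD over 3 samples, and marker shapes give the replicate number. The PTBI samples of *CG16772* sit between 925 and 1206 RPKM and those of *CG34051* between 0.387 and 0.746 RPKM, and no PTBI sample of any of the 4 genes falls among the uninjured ones.

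**Figure D3:**
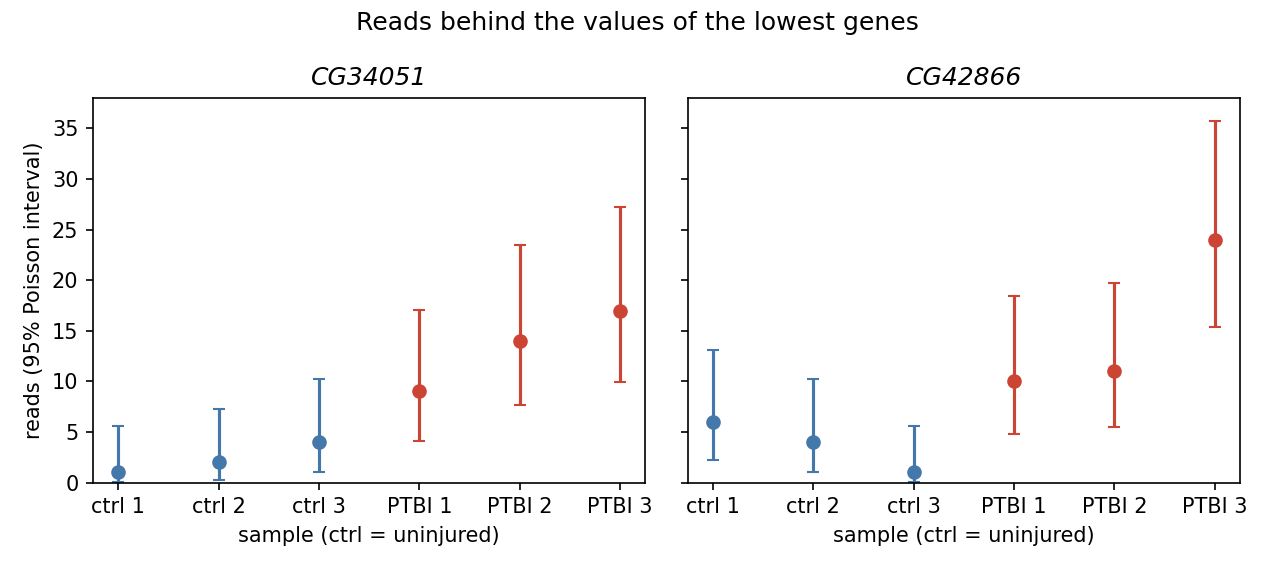
Reads of *CG34051* and *CG42866* in each sample with 95% exact Poisson intervals, which cover counting error only. All uninjured samples hold 6 reads or fewer, and intervals of uninjured and PTBI samples overlap for both genes.

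With reads summed over the 3 samples of a group and set against the summed library sizes, the ratio of PTBI to uninjured was 5.89 for *CG34051* (40 against 7 reads), with a 95% exact interval of 2.61 to 15.6. For *CG42866* it was 4.22 (45 against 11 reads), with an interval of 2.15 to 9.04. For *CG13965* the ratio was 1.99 (785 against 407 reads), with an interval of 1.76 to 2.25. For *CG16772* it was 2.90, with an interval of 2.86 to 2.93. These intervals cover counting error in these libraries and not the spread between samples, so they do not compare the genes with each other.

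The order of levels per gene length was the same in both groups: *CG16772*, then *CG13965*, *CG42866* and *CG34051*. After PTBI, *CG16772* was 65.2-fold above *CG13965*, *CG13965* was 13.4-fold above *CG42866*, and *CG42866* was 2.07-fold above *CG34051*, with no overlap between neighbours in this order. For the last pair the lack of overlap is within counting error. The lowest *CG42866* value, 0.822 RPKM, stands for 10 reads (95% exact Poisson interval 4.80 to 18.4). The highest *CG34051* value, 0.746 RPKM, stands for 14 reads (interval 7.65 to 23.5). In uninjured heads the first 2 steps were 43.6-fold and 27.6-fold, again without overlap. *CG42866* and *CG34051* overlapped there, and in uninjured replicate 3 *CG34051* was the higher of the pair. Of the summed RPKM of the run, *CG16772* made up 97.3 to 97.9% in uninjured samples and 97.9 to 98.6% in PTBI samples. *CG13965* made up 2.03 to 2.57% in uninjured samples and 1.21 to 1.96% in PTBI samples. Within the head-to-head pair, *CG16772* was 41.7, 48.2 and 37.9 times the level of *CG13965* in uninjured replicates 1 to 3 and 50.0, 81.8 and 67.6 times its level in PTBI replicates 1 to 3. The PTBI ratios were all above the uninjured ratios, but the closest pair, 50.0 in PTBI replicate 1 and 48.2 in uninjured replicate 2, is within the counting error of *CG13965* (299 reads with a 95% exact Poisson interval of 266 to 335, and 205 reads with an interval of 178 to 235).

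The replicates of a group did not line up in the same way for all 4 genes. In uninjured heads, *CG16772* and *CG13965* were both highest in replicate 2 and lowest in replicate 3, an order shared by 63 of the 259 genes listed as higher (24.3%). *CG42866* was highest in uninjured replicate 1 and *CG34051* in uninjured replicate 3, each on 6 reads or fewer. After PTBI, *CG16772* and *CG34051* were highest in replicate 2, as were 131 of the 259 genes (50.6%). *CG42866* was highest in PTBI replicate 3. *CG13965* was highest in PTBI replicate 1, as were 35 of the 259 genes (13.5%). In uninjured heads the coefficient of variation was 42.0% for *CG16772*, 29.5% for *CG13965*, 70.4% for *CG42866* and 78.0% for *CG34051*, all above the median of 17.3% over the genes listed as higher. After PTBI, *CG16772* (13.3%) and *CG13965* (12.1%) were below the median of 18.6%, and the low genes *CG34051* (31.2%) and *CG42866* (36.5%) were above it.

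**Figure D4:**
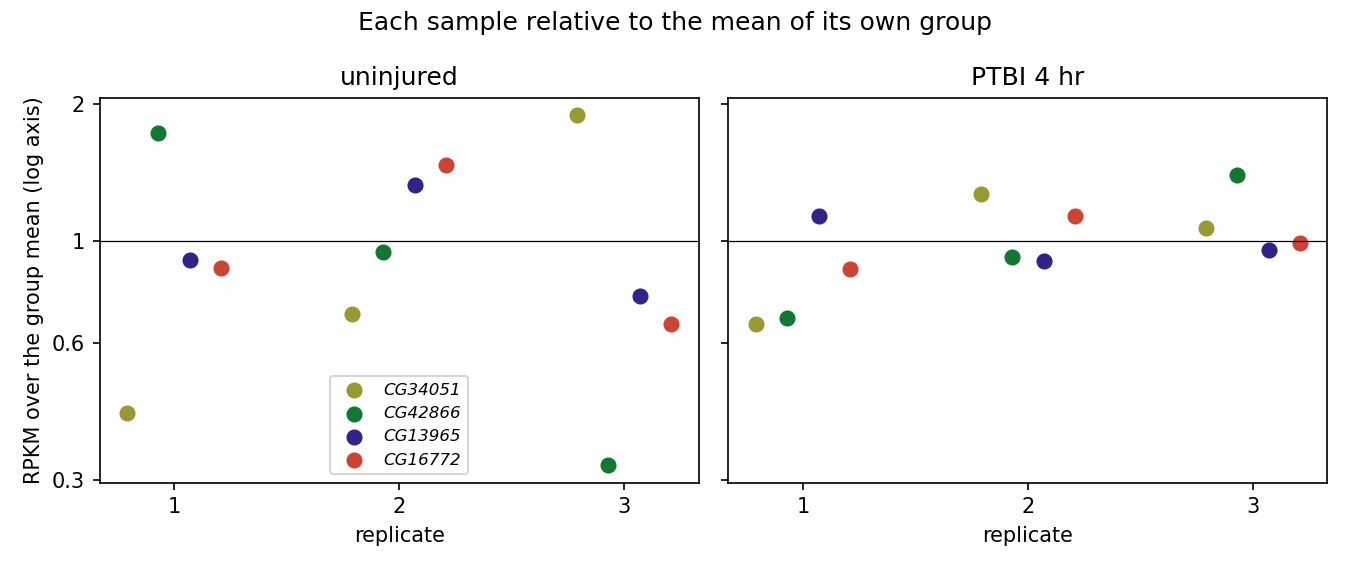
RPKM of each sample divided by the mean of its own group, on a log axis, with the 4 genes side by side at each replicate number. *CG13965* and *CG16772* move together in the uninjured samples, from 0.759 and 0.659 in replicate 3 to 1.33 and 1.47 in replicate 2, and are on opposite sides of the mean in PTBI replicates 1 and 2.

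Set against the whole listing, the folds of the run were moderate. Among the 259 genes listed as higher, the median was 3.13-fold. By fold, *CG34051* ranked 62 and *CG42866* 95 among them, *CG16772* 137 and *CG13965* 251. In a list of secreted immune peptides (antimicrobial peptides, Bomanins and other infection-induced peptides), 30 of 35 annotated genes were listed, all as higher (70.6% of all listed genes were), with a median fold of 8.48. For scale, 367 genes were listed in all, beside 13986 annotated protein-coding genes. *Def*, *BomS4*, *BomS6*, *IM18* and *BaraA2* were not listed. The folds of the 30 listed peptide genes went from 2.09 for *IM33* to 35.0 for *CecB*. By level, however, *CG16772* was within the wide range of these peptide genes after PTBI (means of 23.1 to 4024 RPKM), and 20 of the 30 had a lower mean RPKM.

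The listing holds 5 other runs of 3 or more neighbouring protein-coding genes that were all listed as higher, with 19 genes in all. These are *CecA1* to *CecC*, *Dro* to *AttB*, *BomT1* to *BomS1*, *BomBc2* to *BomS5*, and *CG43165* to *CG3604* around *IM33*. The folds of the 4 adjacent genes, 2.04 to 5.66, were below all folds of the Cecropin run (11.5 to 35.0) and of the *Dro* to *AttB* run (9.06 to 19.3). They overlapped with those of the *CG43165* to *CG3604* run (2.09 to 3.83) and of both Bomanin runs, *BomBc2* to *BomS5* (2.61 to 4.19) and *BomT1* to *BomS1* (5.21 to 7.89). For *CG34051*, at 5.66, the place below the Cecropin and *Dro* to *AttB* folds is within counting error. The ratio of its summed reads had a 95% exact interval of 2.61 to 15.6, which reaches into both of those ranges. Without uninjured replicate 3 the fold of *CG34051* was 10.2, above the lowest *Dro* to *AttB* fold. Leaving out any other sample gave 4.39 to 6.63. In uninjured heads the highest gene of the run, *CG16772*, was at 3360 times the level of the lowest, *CG34051*, while in the other runs this ratio went from 1.52 to 704. The ratio of 3360 rests on the 7 uninjured reads of *CG34051*: it was 7069 without uninjured replicate 3 and 2229 without uninjured replicate 2, alternatives chosen after seeing the data. Near-identical genes such as the Cecropins and *AttA* and *AttB* may share reads, and the sources used here do not say how such reads were counted.

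**Figure D5:**
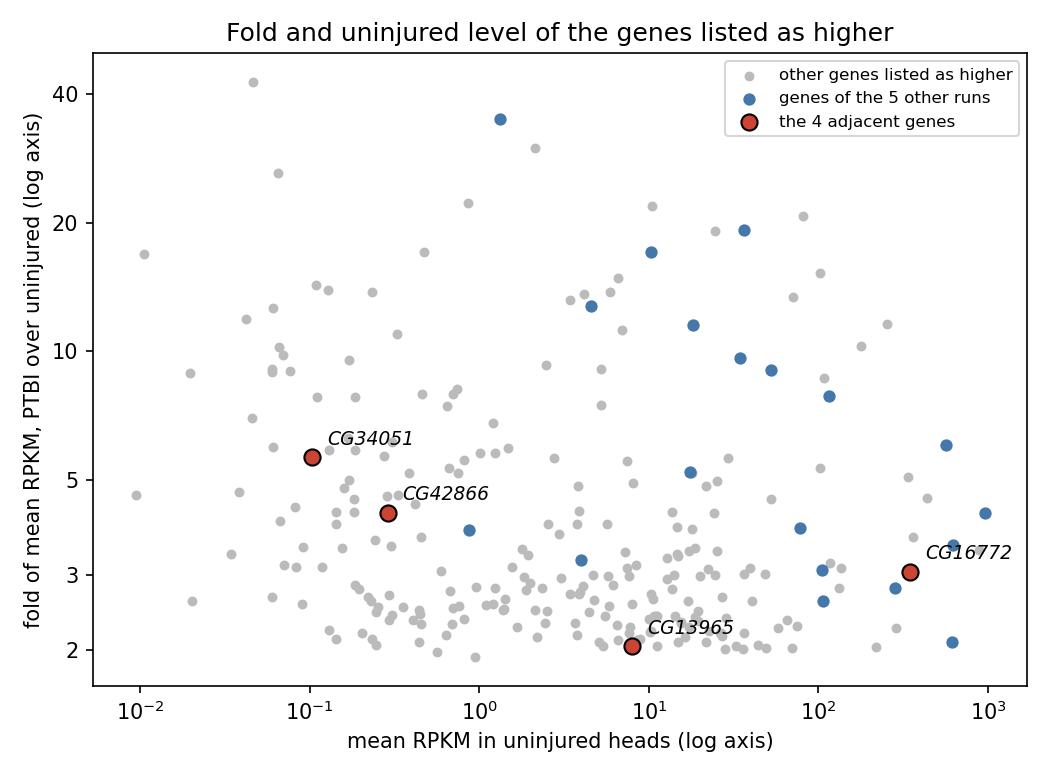
Fold of mean RPKM (PTBI over uninjured) against mean RPKM in uninjured heads for the 259 genes listed as higher, both on log axes. The 4 adjacent genes (red) spread over levels from 0.104 RPKM for *CG34051* to 348 RPKM for *CG16772* at folds of 2.04 to 5.66, and the genes of the 5 other runs are blue.

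The listed genes with the profile most like each member were sought by Euclidean distance between log2(RPKM + 1) values centred on the gene's mean over the 6 samples. The nearest to *CG16772* were *Sid*, a stress-induced DNase gene, at a distance of 0.444 and a fold of 3.33, then *CG6675* (0.571) and *Gadd45* (0.584), a stress-response gene. The nearest to *CG13965* were *CG10663* (0.398), *CG6553* (0.422) and *BomT3* (0.443), a Bomanin gene that rose 2.26-fold. *CG42866* was closest to *Ilp8* (0.222), a relaxin-like peptide gene, to *Nepl17* (0.348) and to *CG12826* (0.382). Their folds were 2.51, 4.59 and 8.96, against 4.19 for *CG42866*. *CG34051* was closest to *HP1D3csd* (0.0851), *CG5246* (0.135) and *ItgaPS4* (0.225). Their folds were 2.49, 11.9 and 2.70, against 5.66 for *CG34051*, so a close profile on this scale did not mean a like fold. No member was among the nearest of another: *CG13965* was at a distance of 1.05 from *CG16772*, and 155 other listed genes were closer to *CG13965*. The profiles were centred but not scaled, so this distance includes the difference in fold, 2.04 for *CG13965* against 3.05 for *CG16772*. On this scale the distances of genes under 1 RPKM are small by construction, and at a pseudocount of 0.1 in place of 1 only 6 of the 12 genes were again among the nearest.

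In bulk samples, fewer cells of a type and less RNA per cell cannot be told apart. Of 11 annotated fat body markers, *Lsp2*, *Lsp1beta*, *Lsp1alpha* and *apolpp* were listed, all as lower after PTBI, as were 108 of all 367 listed genes. The other 7, *Lsp1gamma*, *Fbp1*, *Fbp2*, *Yp1*, *Yp2*, *Yp3* and *FASN1*, were not listed. The summed level of the 4 listed markers was 135 to 314 RPKM in PTBI samples and 1078 to 1693 RPKM in uninjured samples. Most of the uninjured sum was *Lsp2*, with a mean of 884 RPKM there and 74.8 RPKM after PTBI. Of 7 glial markers, *wrapper* and *Mdr65* were listed as lower, with a summed level of 20.9 to 22.8 RPKM against 58.9 to 64.8 RPKM. The glial markers *repo*, *moody*, *Gs2*, *Eaat1* and *alrm* were not listed. None of 8 haemocyte, 5 neuronal and 4 photoreceptor markers was listed, so whether the heads held them at their usual levels could not be checked. The part of these changes in the rise of the 4 adjacent genes was not tested.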

How the data were processed

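The authors made strand-specific mRNA libraries, sequenced single-end 50 bp reads, and mapped them with Subjunc of Subread. The FlyBase genome release, and the tool versions, are not given in the sources used here. Gene counts were normalized with voom and compared with limma. The deposited RPKM values (one per gene and sample) were computed by the authors for genes past their thresholds of 2-fold and an adjusted p of 0.05. The authors' mean expression, log2 fold changes and p-values stand beside them and were not used.

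Symbols matched 4 of 4 genes. Ensembl 115 (BDGP6) matched 360 of 367 identifiers. With its exon lengths, RPKM gave whole reads (within 0.02) in all 6 samples for 356 genes, the 4 members included, at library sizes of 24.3 to 36.2 M reads. Recovery of library sizes was run on simulated counts, in which the exon lengths cancel, so it does not check those lengths. Folds are ratios of mean RPKM. No test was run: the genes and lists were chosen with earlier results of these data known, and the listing holds no unchanged genes. Genes named besides the 4 are the 3 nearest profiles of each, the immune peptides of lowest and highest fold, markers, neighbours within 50 kb and other runs of at least 3 genes. The sample labels call the samples of a group biological replicates. The work used Python 3.11.15 with pandas 2.3.3, numpy 2.4.6, matplotlib 3.10.9 and scipy 1.17.1.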

Additional observations from a re-analysis of the deposited data

How the results depend on the processing

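All folds of the 4 genes and of the run total stayed above 1 under every alternative run. With no PTBI sample among the uninjured ones, medians, pseudocounts and left-out samples had to give this. Only dividing each sample by its median over the listed genes could have come out otherwise. Medians took *CG34051* to 8.74. The pseudocounts of 0.1, 1 and 5 gave 3.45, 1.43 and 1.09 for *CG34051* and 3.60, 1.71 and 1.17 for *CG42866*, as they shrink the folds of low genes. Leaving out 1 sample gave 4.39 to 10.2 for *CG34051*, 3.13 to 6.59 for *CG42866*, 1.82 to 2.44 for *CG13965*, 2.61 to 3.99 for *CG16772* and 2.59 to 3.95 for the run total. Dividing each sample by its median over the listed genes, which was 0.76 higher (log2) in PTBI samples because most listed genes rose, took *CG34051* to 3.23, *CG42866* to 2.45, *CG13965* to 1.24, *CG16772* to 1.83 and the run total to 1.82. Of the 12 nearest genes, 6 were kept with a pseudocount of 0.1 and 7 with a pseudocount of 5. Among candidate genes at a mean RPKM of 1 or more, 7 were kept. In the search for runs, a filter at this level removes *CG34051* and *CG42866* and with them the run. Counting genes of any type gave 6 other runs. No listed gene was within 25 or 100 kb. No paired analysis was possible because no test was run and the labels tie no replicate number across the groups. The promoter and protein comparisons that had been planned were not run, since no sequences were used here. Depth limits *CG34051* and *CG42866* most, with 1 to 24 reads per sample.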
